A study of Lathyrus oleraceus with 16 samples.

Results

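Shoot apical meristems of pea (Pisum sativum, also named Lathyrus oleraceus) that were active and had not sensed seeds were compared between younger, unpruned plants and older, pruned ones. The comparison rests on 8 of the 16 RNA-seq libraries of the study, 4 labelled Proliferative and 4 labelled Pruned, which were chosen by these labels alone. All plants were wild type of the cultivar Cameor, grown in vermiculite with Hoagland solution in a greenhouse, with 16 h of light at 21.5 °C and 8 h of dark at 15 °C. Proliferative meristems came from young plants that had made a first flower bud and had no open flower. Pruned meristems came from plants that were deflowered again and again, and were taken on the day when unpruned plants of the study arrested. The plants thus differed in age, in pruning and in having flowered for some time, and the design cannot tell these apart. Neither the age in days nor the number of plants behind a library is given in the sources used here. The other 8 libraries entered the model fit and serve as a reference: 4 of Arrested meristems, taken when fruiting plants stopped flowering, and 4 of Reactivated meristems, from arrested plants stripped of every flower and fruit 24 h before. Apices were dissected by eye, so tissue from around the meristem can be in every library, and in bulk RNA a shift in the share of a tissue and a change of expression per cell cannot be told apart.

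The shoot apical meristem is the dome of dividing cells at the tip of the shoot that gives rise to leaves and flowers. In plants that flower once, such as pea, its activity ends after a period of fruiting, and removal of fruits or seeds delays or undoes this end. Age is a known input in Arabidopsis, where the microRNA miR172, its AP2-type targets and FRUITFULL act on the timing of the arrest. Which of the measured genes belong to these pathways could not be read from the data. The gene IDs begin with Psat and are not paired with names in the deposited table, and 0 of the 48559 IDs matched the RefSeq gene table of the assembly CAAS_Psat_ZW6_1.0. No name, function, position or sequence is therefore given, marker genes of the meristem, leaf, flower or vascular tissue were not analysed here, and genes are described by what they did across the libraries.

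Total counts ran from 17588462 to 24051585 in the Proliferative libraries and from 17459226 to 21462529 in the Pruned libraries. Genes with 1 or more counts numbered 26831 ± 648 in Proliferative and 26894 ± 339 in Pruned (SD, n = 4), a difference of 63.5 that was smaller than the spread (two-sided exact permutation test, p = 0.857, where the smallest possible p is 0.0286). Levels below are CPM, the share of a library's counts scaled to a common depth with TMM factors. The TMM factor was 1.03 ± 0.0374 in Proliferative and 1.03 ± 0.0528 in Pruned, so the scaling hardly differed between these groups. It ran from 1.13 to 1.24 in the Arrested libraries and from 0.760 to 0.845 in the Reactivated libraries. The scaling therefore matters more where Reactivated is compared with Arrested below.

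The libraries did not group cleanly by label. The highest correlation of log2 CPM among all 28 pairs of the 8 libraries joined Proliferative 2 and Pruned 4, at r = 0.980, above every pair within a group. Pairs within Proliferative ran from 0.935 to 0.960, pairs within Pruned from 0.936 to 0.962, and pairs between the groups from 0.923 to 0.980. The means were 0.950 within Proliferative, 0.951 within Pruned and 0.942 between them. Each r is computed across genes, and genes are not replicates. Proliferative 2 and Pruned 4 were separate libraries, since their mean chi-square per gene of 18.0, the lowest of the 28 pairs, is far above the value of 1 that counting error alone gives. Whether either library holds mixed tissue or carries the label of another group was not tested. In the genes named below, both lay on the side of their own label: Psat5g108040 stood at 5.59 CPM in Pruned 4 and 0.239 CPM in Proliferative 2, and Psat0s2707g0200 at 12.2 and 0.877 CPM. Those genes were chosen because the labelled groups did not overlap, so their values give no check of the labels. The leading principal component of the 8 libraries held 30.9% of the variance and did not separate the groups, with Proliferative 2 at 42.5 and Pruned 4 at 57.04. The second component, with 22.9%, placed the Pruned libraries between -57.7 and -2.46 and the Proliferative libraries between -18.1 and 76.1, with Proliferative 1 inside the Pruned range.

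**Figure D1:**
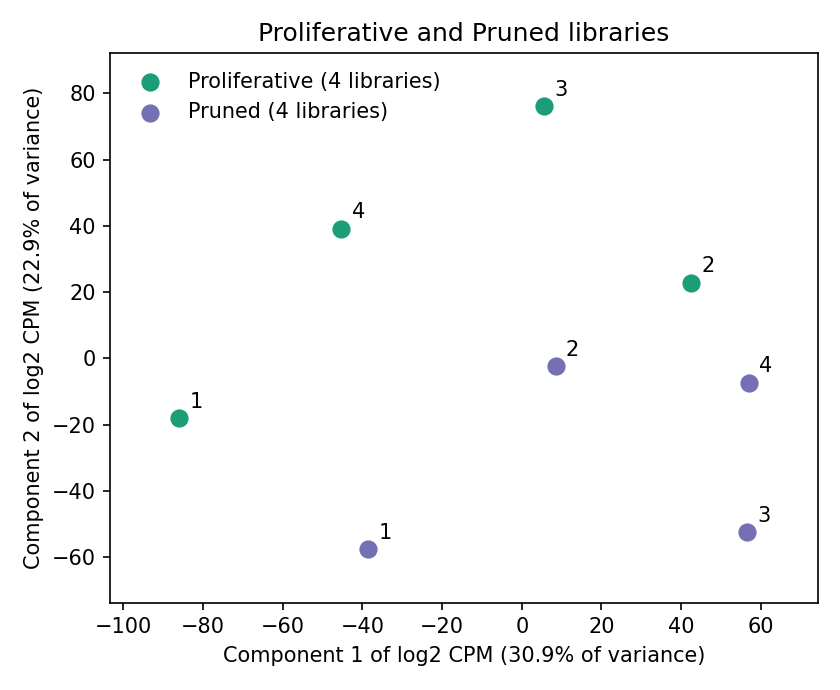
Each point is 1 library, placed by the leading 2 principal components of log2 CPM over the tested genes, with 30.9% of the variance on the horizontal axis and 22.9% on the vertical axis, and numbers give the replicate. Proliferative 2 lies on the side of Pruned 3 and Pruned 4 along the horizontal axis, and only the vertical axis tends to part the groups.

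A second feature marked other libraries. A block of 9 genes had 10 or more counts in each of Proliferative 3, Proliferative 4 and Pruned 2 and at most 1 count in any of the other 13 libraries of the study. These genes held 3463 counts in Proliferative 3, 395 in Proliferative 4 and 5041 in Pruned 2. They were found after the values had been seen, 0 of the 9 passed the filter on low counts, and the main fit did not test them. They are among the genes counted as detected above. Counts of genes are given below with and without these 3 libraries, and with and without Proliferative 2 and Pruned 4.

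Expression differed between the 2 groups in a small part of the transcriptome. Of the 23979 genes tested, 466 were higher in Pruned (1.94%) and 420 were lower (1.75%), 3.69% in all, at an adjusted p under 0.05 (edgeR quasi-likelihood test, Benjamini-Hochberg). The median size of a called difference was 1.35 on the log2 scale for the higher genes and 1.28 for the lower ones, with a median standard error of 0.26 and 0.28. Among the higher genes, 154 differed by less than 2-fold, 158 by 2- to 4-fold, 89 by 4- to 8-fold and 65 by more. Among the lower genes these counts were 163, 119, 63 and 75. For the 6 genes with 0 counts in 1 of the groups, the fold was taken against 3 counts over the 4 libraries of that group.

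The counts depended on the libraries in the fit. The fit used all 16, and when only the 8 libraries of this comparison were filtered, scaled and fitted, 169 of 22757 tested genes were higher and 54 lower. Of the 223 genes called in that fit, 213 are among the 886. The median SD of log2 CPM within a group was 0.30 in Proliferative and 0.30 in Pruned, against 0.23 in Arrested and 0.27 in Reactivated, so the 2 groups outside the comparison had a smaller spread than those compared. The part of the spread, the filter and the scaling in the difference between the fits was not tested. Without Proliferative 3, Proliferative 4 and Pruned 2, 60 genes were higher and 35 lower. That fit set only Proliferative 1 and 2 against Pruned 1, 3 and 4. What part the loss of replicates has in the fall was not tested. Without Proliferative 2 and Pruned 4, 502 were higher and 449 lower. Leaving out 1 library moved a count by over 1.5 times in 3 cases: the higher genes became 302 without Pruned 3, and the lower genes became 244 without Proliferative 4 and 246 without Pruned 2.

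**Figure D2:**
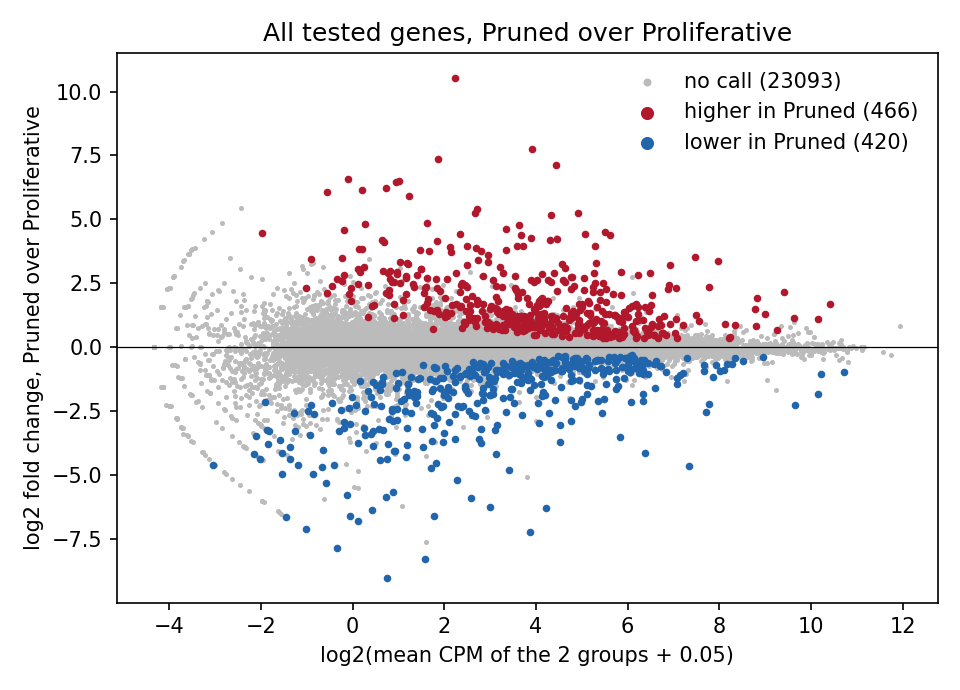
Each point is 1 of the 23979 tested genes, with the log2 of its mean CPM over the 2 groups plus 0.05 on the horizontal axis and its fitted log2 fold change, Pruned over Proliferative, on the vertical axis. The 466 genes called higher in Pruned are red, the 420 called lower are blue and the 23093 with no call are grey, and the called genes span nearly the whole range of levels.

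In the fit of all 16 libraries, the difference was bounded for most genes rather than left unknown. The 95% interval of the log2 fold change lay within 1 on either side of 0, a change of under 2-fold in either direction, for 16090 of the 23093 genes without a call, or 69.7%. For the remaining genes without a call a 2-fold difference could not be left out at this depth and number of libraries. The median standard error over all tested genes was 0.22 on the log2 scale. These intervals rest on a spread estimated over all 16 libraries, and they were not computed in the fit of only the 8 libraries.

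The called genes were not those of lowest level. Among genes with a mean under 1 CPM over the 4 groups, 1.18% were called, and the share was 2.66% from 1 to 4 CPM, 4.40% from 4 to 16 CPM, 4.21% from 16 to 64 CPM and 4.14% above 64 CPM. In the lowest of these classes 22 genes were higher and 5 lower in Pruned. In the highest class the balance was the other way, with 59 higher and 83 lower. The mean that sets a class takes in Arrested and Reactivated, so a high level in Arrested moves a gene to a higher class. Over the 4 groups the median level was 14.9 CPM for the higher genes and 21.2 CPM for the lower ones. The higher genes had a median level of 8.38 CPM in Proliferative and 23.9 CPM in Pruned. The lower genes had a median level of 15.2 CPM in Proliferative and 5.82 CPM in Pruned.

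The 466 genes higher in Pruned stood at graded levels over the 4 Pruned libraries. Relative to the mean of the Proliferative libraries, their median log2 CPM was 1.40 in Pruned 1, 1.38 in Pruned 2, 1.73 in Pruned 3 and 0.77 in Pruned 4, and it lay between -0.086 and 0.055 in the 4 Proliferative libraries. Pruned 3 was the highest Pruned library in 273 of these genes (58.6%), against 29.2% of all tested genes, and Pruned 4 was the lowest in 345 (74.0%), against 22.3% of all tested genes. The 65 genes over 8-fold higher showed the same order more steeply, at 4.36 in Pruned 3 and 2.45 in Pruned 4. Within Proliferative no library was the highest in more than 146 of the 466 genes. Pruned 4, the library most like Proliferative 2, was thus nearest to the Proliferative level. These genes accounted for 2.97% of the counts ± 0.727 in Pruned and 1.25% ± 0.0853 in Proliferative (SD, n = 4), and as they were chosen on these libraries this is a description.

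In 390 of the 466 higher genes (83.7%) the 4 Pruned libraries all lay above the 4 Proliferative libraries, where 3.85% of all tested genes did. Without Proliferative 2 and Pruned 4, the remaining 3 against 3 did not overlap in 458 of the 466 genes, where 8.32% of all tested genes did. The genes were called on this contrast, so these shares describe them and support nothing. Called as higher in each of the 8 fits that leave out 1 library were 251 of the 466 genes (53.9%), and 162 (34.8%) were called with only the 8 libraries. A core of 153 genes met both conditions. Its median difference was 2.29 on the log2 scale.

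Single genes are named by their ID, 2 in each direction, from the called genes that did not overlap between the groups, kept their call in all these fits and reached 10 CPM in the higher group. The rule left 122 higher and 32 lower genes, and the largest fitted differences among them are given. Reads of near-identical copies and of antisense or overlapping neighbours may be counted in each of them.

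Psat5g108040 was nearly silent in Proliferative and present in every Pruned library. It stood at 0.0571, 0.239, 0.213 and 0 CPM in Proliferative 1 to 4 and at 49.2, 28.7, 36.0 and 5.59 CPM in Pruned 1 to 4. The groups did not overlap, and Pruned 4 was the lowest Pruned library by a wide margin. The log2 fold change was 7.75 with a standard error of 1.39 (edgeR quasi-likelihood test, adjusted p = 0.00777). The gene had 0 counts in 3 Arrested libraries and in all 4 Reactivated libraries, and 2.40 CPM in Arrested 4. With 0 counts in Reactivated, a level of up to 0.0488 CPM over the 4 libraries is allowed by counting error. The call was lost with limma-voom (adjusted p = 0.0795) and without Proliferative 3, Proliferative 4 and Pruned 2 (edgeR adjusted p = 0.212), while its log2 fold change stayed at 7.69 and 7.51. Without Proliferative 2 and Pruned 4 it was 8.65 (edgeR adjusted p = 0.0115).

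Psat0s2707g0200 showed the same layout. It stood at 0.0571, 0.877, 0.0532 and 0.0973 CPM in Proliferative 1 to 4 and at 56.6, 39.3, 63.0 and 12.2 CPM in Pruned 1 to 4. Pruned 4 was again the lowest Pruned library and Proliferative 2 the highest Proliferative library. The log2 fold change was 7.12 with a standard error of 0.78 (edgeR adjusted p = 0.000101), and the call held in every alternative fit run. The log2 fold change was 9.12 without Proliferative 2, 9.43 without Proliferative 2 and Pruned 4, and 6.42 without Proliferative 3, Proliferative 4 and Pruned 2. Arrested 4 had 0.272 CPM and the other 3 Arrested libraries had 0 counts, and the Reactivated libraries ran from 0 to 0.134 CPM. Of the 4 groups, both of these genes were at 1 CPM or more in every library of Pruned alone, and both were picked for their difference from Proliferative.

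The 420 genes lower in Pruned varied most within Proliferative. Relative to the mean of the Proliferative libraries, their median log2 CPM was 0.083, -0.40, 0.057 and 0.27 in Proliferative 1 to 4, and it lay between -1.27 and -1.06 in the 4 Pruned libraries. Proliferative 2 was the lowest Proliferative library in 258 of these genes (61.4%), against 23.5% of all tested genes. In the 75 genes over 8-fold lower the range was wider, from -1.87 in Proliferative 2 to 1.05 in Proliferative 3, and Proliferative 3 was the highest Proliferative library in 45 of the 75. The median SD of log2 CPM of the 420 genes was 0.49 in Proliferative and 0.33 in Pruned, while for the 466 higher genes it was 0.32 in Proliferative and 0.47 in Pruned. Between Proliferative and Pruned, the group with the higher level was thus the more variable one in each set. In Arrested, where the 420 genes stood highest, their median SD was 0.24. The lower genes took 2.37% of all counts ± 0.451 in Proliferative and 1.11% ± 0.0385 in Pruned (SD, n = 4, a description).

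In 304 of the 420 lower genes (72.4%) all Pruned libraries lay below all Proliferative libraries, where 3.68% of all tested genes did. Without Proliferative 2 and Pruned 4 this held for 408 of them, where 8.05% of all tested genes did. Called in each of the 8 fits without 1 library were 175 (41.7%), and 51 (12.1%) were called with only the 8 libraries. The core that met both conditions held 50 genes, with a median difference of 2.12 on the log2 scale.

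Psat2g181920 was low in Pruned and uneven in Proliferative. It stood at 12.2, 0.638, 82.0 and 20.7 CPM in Proliferative 1 to 4 and at 0.256, 0.203, 0.216 and 0.0860 CPM in Pruned 1 to 4. The groups did not overlap, but Proliferative 2 came close to the Pruned level and Proliferative 3 was far above the other Proliferative libraries. The log2 fold change was -7.23 with a standard error of 1.18 (edgeR quasi-likelihood test, adjusted p = 0.00246). It stood at 60.4, 191.7, 140.8 and 183.4 CPM in Arrested 1 to 4 and between 5.89 and 11.5 CPM in Reactivated. Without Proliferative 3 alone the log2 fold change was -5.85 (edgeR adjusted p = 0.00358). With only the 8 libraries it was -7.23 (edgeR adjusted p = 0.0481), just under the threshold. The call was lost with limma-voom, at -5.58 (adjusted p = 0.487), and without Proliferative 3, Proliferative 4 and Pruned 2, at -5.08 (edgeR adjusted p = 0.0751).

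Psat5g133000 had the same order of groups. It stood at 6.17, 3.27, 55.5 and 17.4 CPM in Proliferative 1 to 4 and at 0.512, 0.559, 1.19 and 0.645 CPM in Pruned 1 to 4. Proliferative 2 was again the lowest Proliferative library and Proliferative 3 the highest. The log2 fold change was -4.82 with a standard error of 0.74 (edgeR adjusted p = 0.00148), and with limma-voom the call was lost, at -3.9997 (adjusted p = 0.119). Without Proliferative 3 alone it was -3.62 (edgeR adjusted p = 0.000785). With only the 8 libraries it was -4.82 (edgeR adjusted p = 0.0475), again just under the threshold. Without Proliferative 3, Proliferative 4 and Pruned 2 it was -2.59 (edgeR adjusted p = 0.0116). Arrested libraries ran from 184.5 to 283.2 CPM and Reactivated libraries from 4.55 to 6.08 CPM, with no overlap between any of the Arrested and the other libraries.

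**Figure D3:**
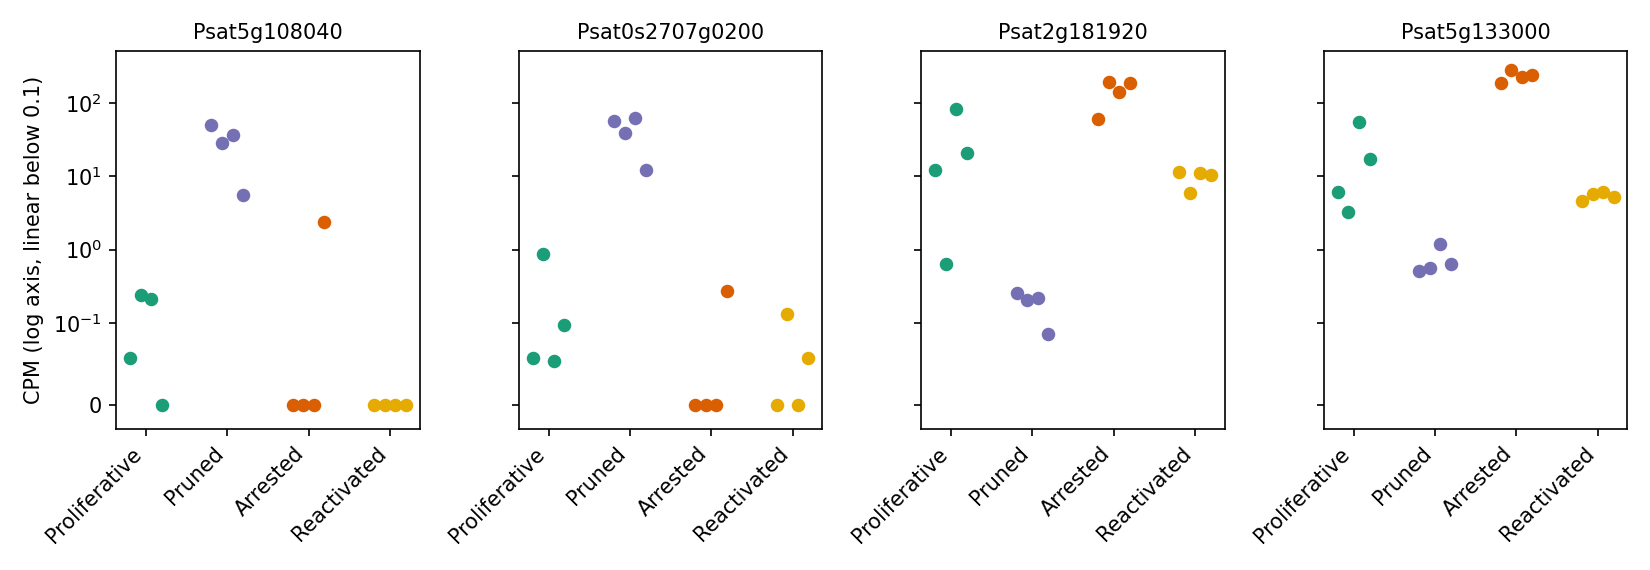
Each panel is 1 gene and each point 1 library, with CPM on a log axis that is linear below 0.1 and libraries placed by group and ordered by replicate number. The 2 genes on the left are above 5 CPM in every Pruned library and below 3 CPM elsewhere. The 2 on the right are lowest in Pruned and have their highest group mean in Arrested. For Psat2g181920, Proliferative 3 at 82.0 CPM lies above Arrested 1 at 60.4 CPM.

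The contrast that chose these genes did not use their levels in Arrested and Reactivated meristems, although these libraries shared the filter, the scaling and the estimate of the spread. Relative to the Proliferative mean, the 466 higher genes had a median log2 CPM between 0.25 and 0.40 in the 4 Arrested libraries and between 0.14 and 0.37 in the 4 Reactivated libraries, all below the lowest Pruned library at 0.77. For the 420 lower genes the 2 groups lay far apart: the medians were 1.48 to 1.83 in Arrested and -1.19 to -0.90 in Reactivated. Arrested libraries lay above the Proliferative libraries, and the Reactivated libraries lay close to the Pruned range of -1.27 to -1.06. The Proliferative mean and the Pruned levels are those that chose the genes. Distances to them depend in part on that choice and are a description. All tested genes stood between -0.085 and 0.018 in every library of the 4 groups on this measure. The lower genes made up 9.18% of all counts ± 0.658 in Arrested and 1.06% ± 0.0425 in Reactivated (SD, n = 4).

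**Figure D4:**
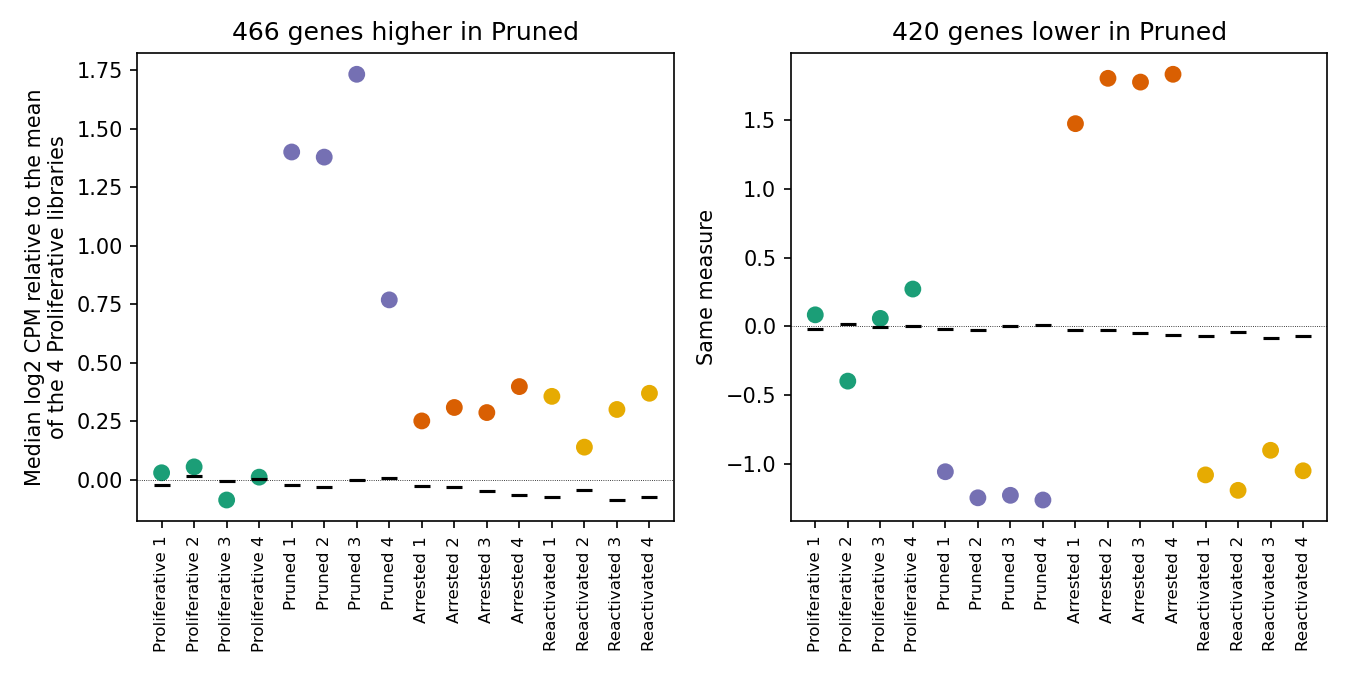
Each coloured point is 1 of the 16 libraries and gives the median, over the genes of a set, of log2 CPM minus the mean of the 4 Proliferative libraries, on the left for the 466 genes higher in Pruned and on the right for the 420 lower, and black bars give the same for all tested genes. On the left Pruned 4 is the lowest Pruned library, at 0.77, and on the right the Arrested libraries are the highest, between 1.48 and 1.83, and the Reactivated libraries are near the Pruned ones.

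The comparison of Reactivated with Arrested holds no Pruned or Proliferative library. It asks whether genes that separate Pruned from Proliferative also differ between arrested meristems and meristems 24 h after removal of flowers and fruits. Of the 420 genes lower in Pruned, 356 (84.8%) were lower in Reactivated than in Arrested, 37 (8.81%) were higher and 27 had no call, where 35.8% of all tested genes were lower and 36.3% higher (edgeR quasi-likelihood test, adjusted p under 0.05). The median log2 fold change, Reactivated over Arrested, was -3.28 in these genes and -0.0056 over all tested genes. The 466 genes higher in Pruned, taken as a whole, were close to the background: 174 (37.3%) were higher in Reactivated than in Arrested, 158 (33.9%) were lower and 134 had no call, with a median of 0.018. The groups of the 2 comparisons shared no library, but all 16 shared the filter, the scaling and the estimate of the spread. The core of 50 lower genes, which are also called with no Arrested or Reactivated library in the fit, held 46 that were lower in Reactivated and 2 that were higher, and the core of 153 higher genes held 67 that were higher and 37 that were lower.

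The shares differed between classes of the size of the difference between Pruned and Proliferative. Among the 420 lower genes, 115 of 163 with under 2-fold difference were lower in Reactivated than in Arrested, 109 of 119 with 2- to 4-fold, 63 of 63 with 4- to 8-fold and 69 of 75 with more. In the 2 classes of over 4-fold, 0 genes were higher in Reactivated. The median log2 fold change, Reactivated over Arrested, went from -1.34 in the class under 2-fold to -5.68 in the class over 8-fold. Among the 466 higher genes, 65 of 154 with under 2-fold difference were lower in Reactivated (42.2%), 56 of 158 with 2- to 4-fold (35.4%), 27 of 89 with 4- to 8-fold (30.3%) and 10 of 65 with more (15.4%), against 35.8% of all tested genes. In that last class 23 were higher in Reactivated, and the median log2 fold change was 0.39. The share of lower genes that were lower in Reactivated stood above the background in each class of level from 1 CPM up: 91.1% of the lower genes with 1 to 4 CPM were lower in Reactivated, where 35.0% of all tested genes in that class were, and 78.3% of those above 64 CPM, where 23.3% were. In the class under 1 CPM it was 2 of 5 genes. The mean that sets these classes includes Arrested and Reactivated, so the classes are not independent of this comparison. When libraries were scaled by their totals only, 88.8% of the lower genes were lower in Reactivated, where 49.5% of all tested genes were, and 28.6% of the higher genes were higher, where 24.8% were.

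**Figure D5:**
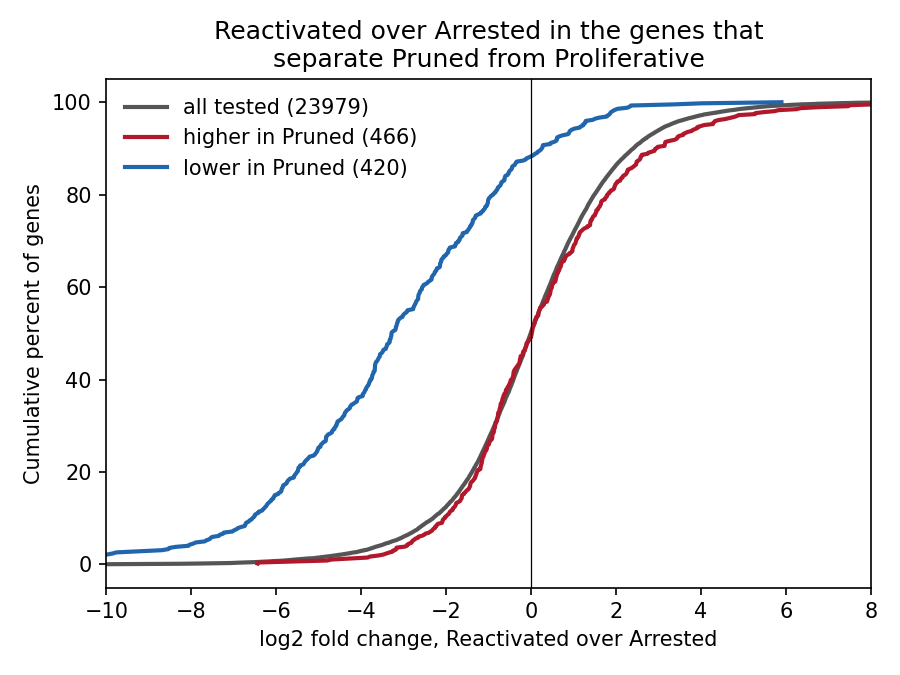
Lines give the cumulative percent of genes against the fitted log2 fold change, Reactivated over Arrested, for all 23979 tested genes in grey, the 466 genes higher in Pruned in red and the 420 lower in blue. The blue line lies to the left, with a median of -3.28, and the red line follows the grey one near 0, with a median of 0.018.

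Set against Arrested directly, the 2 active groups gave different distances for the same genes. The median log2 fold change of the 420 lower genes was 1.65 for Arrested over Proliferative and 3.13 for Arrested over Pruned. For the 466 higher genes it was 0.32 over Proliferative and -1.23 over Pruned. Against Reactivated, the lower genes stood at -1.23 over Proliferative and 0.14 over Pruned, and the higher genes at 0.30 over Proliferative and -1.13 over Pruned. These contrasts share the Proliferative or Pruned libraries that chose the genes, so they are given side by side with no count and no test.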

How the data were processed

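The authors deposited raw counts of reads per gene in 1 table for all 16 libraries, and the values are whole numbers. Poly(A) RNA was made into stranded libraries for an Illumina NovaSeq, per the labels' protocols. The tools named, per the submitters' processing notes, are HISAT2, cutadapt, DESeq2 and HTSeq, without role or version. The name of the deposited counts says that strand was ignored, and the genome build is not given in the sources used here. Of 48559 gene IDs, 17007 had no count in any library.

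In R 4.3.3, edgeR 4.0.16 filtered genes with filterByExpr by group (23979 kept, holding at least 99.7% of each library's counts), scaled with TMM, and fitted all 16 libraries with group as the only term (glmQLFit, glmQLFTest). Calls used a Benjamini-Hochberg adjusted p under 0.05. Standard errors are the log2 fold change divided by the square root of F. log2 CPM used a prior count of 2. Intervals and floors cover counting error or library spread only. DESeq2 1.42.0 and limma-voom (limma 3.58.1) were alternatives. The fits were also run on simulated counts where all groups shared a common mean per gene, apart from 200 genes changed in Pruned. These counts held no change in Arrested or Reactivated and the same spread in every group. They therefore give no check of the calls made here. The genes named were the 2 with the largest fitted difference in each direction among called genes without overlap, called in the 8-library and all leave-one-out fits, at 10 CPM or more in the higher group. Comparisons, gene sets and alternatives were chosen with earlier results of these data known, and leaving out Proliferative 2 and Pruned 4 was chosen after seeing the data.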

Additional observations from a re-analysis of the deposited data

Results flagged for a closer look

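Of 38 groups of 4 libraries examined, 5 held a library whose gap to the nearest other exceeded 0.829 of the group's range. Chance flags about 1 in 20 groups. That rate does not hold where 3 libraries have 0 counts, as for both genes in Arrested below. There any count in the remaining library raises the flag. Psat5g108040 was at 2.40 CPM in Arrested 4, with 0 counts in the other 3 Arrested libraries. Psat0s2707g0200 was at 0.272 CPM in Arrested 4, again with 0 counts in the other 3, and at 0.877 CPM in Proliferative 2, where the other Proliferative libraries were below 0.1 CPM. The genes higher in Pruned had a median log2 CPM of 3.16 in Reactivated 2, below the other Reactivated libraries at 3.42 to 3.47. The genes lower in Pruned had a median log2 CPM of 5.20 in Arrested 1, below the other Arrested libraries at 5.42 to 5.45.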

How the results depend on the processing

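For genes higher and lower in Pruned the counts were 783 and 780 with DESeq2, 391 and 251 with limma-voom, 332 and 271 with a replicate block, 169 and 54 with only the 8 libraries, 60 and 35 without Proliferative 3, Proliferative 4 and Pruned 2, and 163 and 106 against a 1.5-fold change. Leaving out 1 library gave 302 to 554 higher and 244 to 599 lower genes. The median size of a called difference was 1.32, and 1.05 with DESeq2, 2.17 with only the 8 libraries, 2.41 without those 3 libraries, and 1.33 to 1.63 with 1 library left out. The percent of lower genes that were lower in Reactivated was 88.8 with library totals, 79.7 with DESeq2, 72.1 with limma-voom, 89.5 without Proliferative 2 and Pruned 4, and 79.1 to 88.6 with 1 library left out. Over all tested genes the percent lower was 49.5, 36.4, 35.7, 35.7 and 35.5 to 36.2, in the same order. The percent of higher genes that were higher was 28.6, 43.2 with DESeq2, 44.4 with only the 8 libraries, 43.3 without those 3 libraries, and 34.7 to 41.7 with 1 library left out, where the first value is for library totals. Over all tested genes the percent higher was 24.8, 37.0, 36.3, 35.3 and 35.2 to 36.1, in the same order. The cause of these moves was not tested. The difference in detected genes turned to -239.8 without Proliferative 1 and to -70.4 without Pruned 4, in a range up to 248.6. By their deviations, same-numbered Proliferative and Pruned libraries were each other's best match across the groups for number 1 only. These deviations correlated at 0.54, -0.28, -0.058 and -0.18 for numbers 1 to 4. The log2 CPM of Proliferative 1 and Pruned 1 correlated at 0.9602, rank 3 of the 28 pairs. The replicate block left 597 of the 886 calls. Of genes under 1 CPM, 1.18% were called, and what part depth has in this was not tested.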

Other observations

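The called genes were spread over all 8 classes of gene ID that the deposited table holds, named here by the start of the ID. The share called ran from 3.39% of the tested IDs that start with Psat1g to 4.06% of those that start with Psat4g, against 3.69% of all tested genes. IDs that start with Psat0s held 62 genes higher and 36 lower in Pruned, and IDs that start with Psat7g held 60 higher and 70 lower. The deposited table does not say what these classes stand for.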
